A study of Mus musculus with 6 samples.

Results

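The 6 type IV collagen chain genes of the mouse, Col4a1 to Col4a6, were followed in lung RNA from Carm1 knockout and wild-type mice. They are 6 of the 12947 genes tested and were represented by 12 probe sets, all of which passed the filter on dim signals. A probe set is a group of short oligonucleotides against one transcript that together give 1 signal. The chains were chosen by gene symbol, as one complete family, but they were selected on earlier results of these same arrays, namely their signal levels and the knockout minus wild-type differences of the alpha1 and alpha2 chains against the alpha3, alpha4 and alpha5 chains. Those levels and differences are therefore given as a description, with no test. The arrays were 3 labelled Carm1 knockout (knockout replicates 1 to 3) and 3 labelled wild type (wild type replicates 1 to 3), each with lung RNA of 1 sample. The Carm1 protein methylates arginines in histones and other proteins and coactivates transcription. Some labels spell the knocked-out gene CRAM1. The labels name no Cre driver, strain, clone or targeted allele. The series' design places both genotypes at embryonic day 18.5, as the knockout labels do, whereas the wild-type labels call the tissue neonatal, so a difference in age and the genotype cannot be told apart. Nothing in the labels tells separate animals or litters from repeats of 1 RNA, so the intervals below measure the spread between these arrays only.

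Type IV collagen is the network-forming collagen of basement membranes, the sheets on which epithelium and endothelium rest. Its chains wind into triple helices of 3 fixed kinds: alpha1.alpha1.alpha2, found in nearly all basement membranes, alpha3.alpha4.alpha5, and alpha5.alpha5.alpha6. The alpha3.alpha4.alpha5 network is best known from the filter of the kidney, where its loss causes Alport syndrome, and it is also laid down in the alveolar basement membrane of the lung, where mature alveolar type I cells transcribe Col4a3 and Col4a4. The genes lie as 3 pairs of direct neighbours, Col4a1 with Col4a2 on chromosome 8, Col4a3 with Col4a4 on chromosome 1, and Col4a5 with Col4a6 on the X chromosome.

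The arrays differed in ways other than genotype. The bacterial control RNA that can be added before labelling was present on wild type replicates 1 and 3, with median signals of 609 and 379, and at 11.4 or less on the other 4 arrays. Xist and the Y-linked Eif2s3y put knockout replicate 2 and wild type replicate 3 among males and the remaining 4 arrays among females. The targeted gene, Carm1, had signals of 395, 374 and 511 in knockout lungs, against 814, 678 and 865 in wild-type lungs. Its knockout level was 54.0% of wild type (limma adjusted p = 0.105), and it is not known here whether its probes fall inside the deletion. The lung was recognisable from its defining markers, with Sftpc at a mean of 52420 in knockout lungs and 50143 in wild-type lungs. All 12 alveolar type I markers listed also passed the filter.

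The promoters of the neighbouring chains are shown because the neighbouring chains are compared in the values that follow. RefSeq windows from 250 bases before to 50 bases after the gene start, of build GRCm38.p6, were used for 5 of the 6 chains. The table of windows used here does not list Col4a3. The windows of Col4a1 (chr8:11312777-11313076, minus strand) and Col4a2 (chr8:11312555-11312854, plus strand) lie on opposite strands and share 78 bases, which stand at the downstream end of both, with their starts 21 bases apart. The shared bases are in capitals in both sequences, and each is the reverse complement of the other. The window of Col4a4 (chr1:82586800-82587099, minus strand) is shown beside them. It has no capitals, since it held none of the motifs searched and its neighbour Col4a3 has no window here. Whether the windows of Col4a3 and Col4a4 share bases could therefore not be examined.

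Col4a1: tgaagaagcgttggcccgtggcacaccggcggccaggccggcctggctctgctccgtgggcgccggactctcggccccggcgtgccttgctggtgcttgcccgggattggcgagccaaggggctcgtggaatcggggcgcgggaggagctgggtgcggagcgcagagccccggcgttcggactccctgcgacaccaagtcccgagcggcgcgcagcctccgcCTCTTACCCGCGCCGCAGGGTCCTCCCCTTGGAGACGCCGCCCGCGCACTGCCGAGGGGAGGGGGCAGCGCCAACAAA

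Col4a2: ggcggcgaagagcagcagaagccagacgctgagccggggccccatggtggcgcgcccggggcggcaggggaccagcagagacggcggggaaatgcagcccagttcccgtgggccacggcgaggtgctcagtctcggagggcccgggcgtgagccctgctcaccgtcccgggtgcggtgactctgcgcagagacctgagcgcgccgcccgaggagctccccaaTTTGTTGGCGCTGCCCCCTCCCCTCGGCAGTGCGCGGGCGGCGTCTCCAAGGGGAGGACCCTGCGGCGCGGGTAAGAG

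Col4a4: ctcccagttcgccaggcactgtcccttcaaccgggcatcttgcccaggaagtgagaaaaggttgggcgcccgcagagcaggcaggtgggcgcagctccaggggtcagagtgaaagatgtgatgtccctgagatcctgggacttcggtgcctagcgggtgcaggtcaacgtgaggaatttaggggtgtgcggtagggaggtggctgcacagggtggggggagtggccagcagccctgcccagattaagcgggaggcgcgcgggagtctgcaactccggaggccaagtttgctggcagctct

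The Col4a1 and Col4a2 windows were rich in G and C, at 74.0% and 73.7%, and held 37 and 33 CpG dinucleotides. The Col4a4 window had 63.3% and 14, against medians of 52.7% and 7 over all 32851 windows of this length. The CCAAT motif on either strand occurred in the Col4a1, Col4a2 and Col4a5 windows and in 37.4% of all windows. The GC box GGGCGG on either strand occurred in the Col4a1, Col4a2, Col4a5 and Col4a6 windows and in 35.7% of all windows. The single GC box of the Col4a1 window lay in the shared bases and was one of the 3 in the Col4a2 window. The Col4a4 window held neither motif, and no chain's window held TATAAA (13.6% of all windows) or AGAACA, a hexamer of the glucocorticoid receptor's binding site (19.0% of all windows). The windows of Col4a5 and Col4a6 did not overlap, and their starts lay 1343 bases apart. A match or its absence says only which letters stand in these windows.

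Col4a3 and Col4a4, of the alpha3.alpha4.alpha5 network, were the chains with the lowest knockout signals relative to wild type. The 5 probe sets of these 2 genes had knockout signals between 32.2% and 42.4% of wild type, while the 3 probe sets of Col4a1 and Col4a2 had between 67.5% and 85.7%. Col4a5 stood near the Col4a1 and Col4a2 values, with 74.3% and 75.5% at its 2 probe sets. Col4a6 did not separate the genotypes.

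Col4a3 encodes the alpha3 chain, which carries the target of the autoantibodies of Goodpasture disease, an illness of lung and kidney. At probe set 1450224_at its signal was 302, 321 and 192 in knockout replicates 1 to 3, against 1030.3, 675 and 803 in wild type replicates 1 to 3. Every knockout array lay below every wild-type array, and the highest knockout value was 47.5% of the lowest wild-type value. The log2 difference was −1.64 (95% interval −2.16 to −1.11), the 25th lowest of the 27022 probe sets tested, or 3.11-fold lower. The other Col4a3 probe set, 1438779_at, had signals of 346, 239 and 214 in knockout lungs, against 994, 648 and 539.9 in wild-type lungs. Here too the groups did not overlap, and the log2 difference was −1.43 (−2.02 to −0.845). Knockout replicate 3 was the lowest array at both probe sets, and wild type replicate 1 the highest.

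Col4a4 encodes the alpha4 chain, the obligate partner of alpha3, and was read by 3 probe sets. At the brightest, 1445328_at, the signals were 1628, 1626 and 985 in knockout lungs, against 3874, 3412 and 3662 in wild-type lungs. The knockout arrays were all under the wild-type range and replicates 1 and 2 of the knockout nearly coincided. Its log2 difference was −1.40 (−1.83 to −0.98). Probe set 1440250_at gave 1003, 879 and 586 in knockout lungs, against 2069.6, 1878 and 2032 in wild-type lungs, a log2 difference of −1.31 (−1.73 to −0.89). Probe set 1425772_at gave 271, 246 and 163 in knockout lungs, against 555, 455 and 564 in wild-type lungs, a log2 difference of −1.24 (−1.73 to −0.74). Each of the 3 probe sets put knockout replicate 3 lowest.

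**Figure D1:**
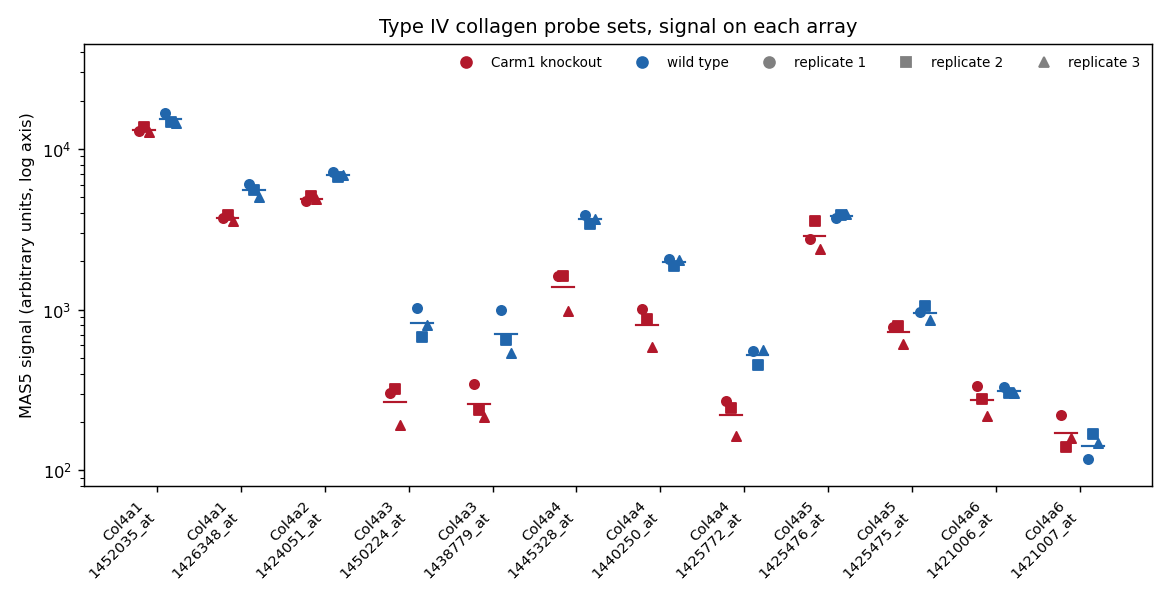
MAS5 signal (log axis) of the 12 type IV collagen probe sets on each array, Carm1 knockout in red at the left of each pair and wild type in blue at the right, with a symbol for each replicate and a line at the geometric mean. At the 5 probe sets of Col4a3 and Col4a4 the gap between genotypes is wide, at those of Col4a1, Col4a2 and Col4a5 it is narrower and the groups do not overlap, and at Col4a6 they overlap.

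Col4a5 encodes the chain that completes the alpha3.alpha4.alpha5 helix and that also pairs with alpha6. Its brighter probe set, 1425476_at, had signals of 2758, 3557 and 2394 in knockout lungs, against 3737, 3885 and 3944 in wild-type lungs. The groups did not overlap, but knockout replicate 2 reached 95.2% of the lowest wild-type array. The log2 difference was −0.43 (−0.75 to −0.11). At the second probe set, 1425475_at, the values were 778, 794 and 612 in knockout lungs, against 966, 1053 and 862 in wild-type lungs, a log2 difference of −0.40 (−0.73 to −0.08). The difference was small between the male arrays, with 1 array per genotype. There 1425475_at had −0.12 and 1425476_at had −0.15, against −0.55 and −0.57 among the 4 female arrays. The difference between these sexes was not tested. Col4a5 is X-linked, and each genotype holds 1 male array, so a term for sex left the differences at −0.43 and −0.40.

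Col4a1 and Col4a2, which encode the chains of the common basement membrane network, had smaller differences and a small spread. Col4a2, at its 1 probe set, had signals of 4759, 5082 and 4889.5 in knockout lungs, against 7209, 6654 and 6878 in wild-type lungs. The arrays of each genotype lay close together, the highest knockout value was 76.4% of the lowest wild-type value, and the log2 difference was −0.49 (−0.69 to −0.30). Col4a1 at probe set 1426348_at had 3743, 3877 and 3583 in knockout lungs, against 6062, 5572 and 5007 in wild-type lungs, a log2 difference of −0.57 (−0.79 to −0.34). Its other probe set, 1452035_at, annotated with the same source sequence, had 12963, 13707 and 12683 in knockout lungs, against 16664, 14816 and 14516 in wild-type lungs. The groups were still separate there, but the log2 difference was only −0.22 (−0.44 to −0.01). Between the male arrays alone, 1 per genotype, the 2 Col4a1 probe sets differed by −0.37 and −0.08, so the size of the Col4a1 difference varied with the probe set and the arrays, and its sign did not.

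Col4a6, whose chain joins alpha5 in the basement membranes of smooth muscle and of some epithelia, gave dim signals in both genotypes. The knockout signals of Col4a3, and of Col4a4 at 1425772_at, lay in a similar range. Probe set 1421006_at had 336, 279.9 and 218 in knockout lungs, against 332, 304 and 305 in wild-type lungs. Knockout replicate 1 exceeded all wild-type arrays there, and the log2 difference was −0.20 (−0.64 to 0.245). Probe set 1421007_at had 222, 139.6 and 160.1 in knockout lungs, against 117.5, 167.5 and 148 in wild-type lungs, and its log2 difference was 0.26 (−0.335 to 0.85). The probe sets thus had opposite signs, and both intervals include 0.

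**Figure D2:**
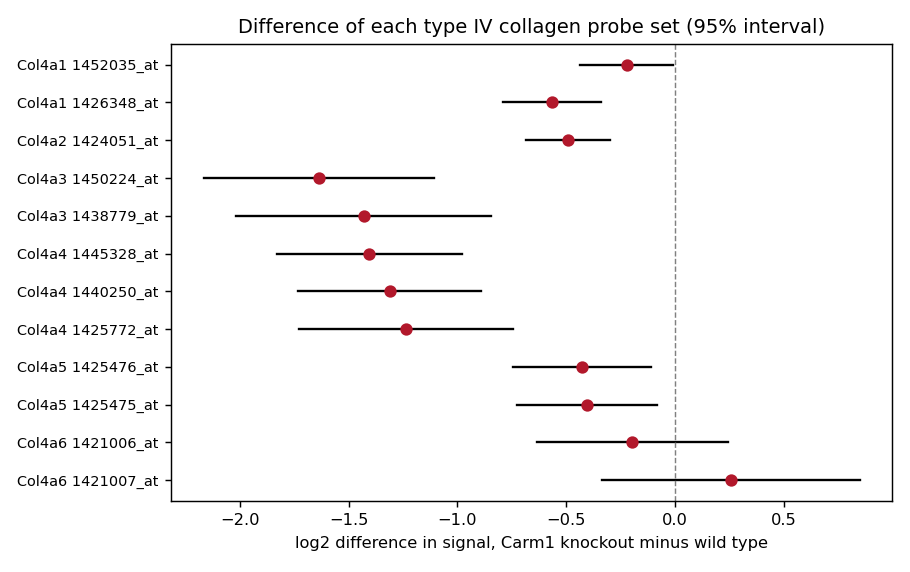
Log2 difference in signal, Carm1 knockout minus wild type, at each of the 12 probe sets, as points with the 95% interval from the limma fit to 3 arrays per genotype. The 5 points of Col4a3 and Col4a4 lie between −1.64 and −1.24, those of Col4a1, Col4a2 and Col4a5 between −0.57 and −0.22, and those of Col4a6 on either side of 0.

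At 10 of the 12 probe sets every knockout signal was under every wild-type signal, as it was at 9.36% of all probe sets tested. None passed an adjusted p under 0.05 with limma, where 0.0296% of all probe sets passed, and 10 of the 12 had an unadjusted p under 0.05, as did 13.6% of all probe sets. With limma's robust variance, where 0.148% of all probe sets passed, 3 of the 12 did, 1450224_at of Col4a3 and 1440250_at and 1445328_at of Col4a4. These counts come from the contrast that chose the chains and are a description only. The median log2 difference over the 12 probe sets was −0.53, beside 0.02 over all 27022. For the 7 probe sets of Col4a3, Col4a4 and Col4a5 it was −1.31, and for the 3 of Col4a1 and Col4a2 it was −0.49. Signals of different probe sets depend on how well each set of oligonucleotides binds, so the order of the chains in signal was not read as an order in abundance. In whole-lung RNA, fewer cells of a type and less RNA per cell cannot be told apart.

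The chains also differed in how their spread fell over the arrays. The SD of the log2 signal among the 3 knockout arrays was 0.36 to 0.42 at the probe sets of Col4a3 and Col4a4, and 0.05 to 0.06 at those of Col4a1 and Col4a2. The same SD was 0.21 to 0.29 for Col4a5 and 0.31 to 0.34 for Col4a6. Among the wild-type arrays the SD was 0.07 to 0.45 for Col4a3 and Col4a4 and 0.06 to 0.14 for Col4a1 and Col4a2. For Col4a5 it was 0.04 to 0.14 there, and for Col4a6 0.07 to 0.26. When each probe set was centred on its mean over the 6 arrays, the mean of Col4a3 and Col4a4 was −0.41, −0.57 and −1.13 in knockout replicates 1 to 3, against 0.91, 0.55 and 0.65 in wild type replicates 1 to 3. The same value for Col4a1 and Col4a2 was −0.23, −0.16 and −0.25 in knockout lungs, against 0.32, 0.18 and 0.14 in wild-type lungs. Within each array, the first value minus the second was −0.18, −0.41 and −0.88 in knockout lungs, against 0.59, 0.36 and 0.51 in wild-type lungs. The alveolar pair was thus lower relative to the common pair on each knockout array than on any wild-type array. This restates the contrast that chose the chains and is a description only.

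Markers of cell types moved beside the chains, and their part in the differences was not tested. All 12 alveolar type I markers had lower means in knockout lungs, 10 of them with no overlap, with a median log2 difference of −0.63 and a range of −1.72 to −0.29. Over all genes tested, 45.4% had a negative log2 difference. Every knockout signal was under every wild-type signal for 10.5% of all genes and above for 12.6%. Their summed signal was 82101 to 105651 in knockout lungs, against 124469 to 165668 in wild-type lungs. Aqp5, a water channel, had the lowest, −1.72. The centred mean of the type I list was −0.25, −0.13 and −0.67 in knockout lungs, against 0.58, 0.31 and 0.17 in wild-type lungs, and knockout replicate 3 was again the lowest array. On each array, the centred mean of Col4a3 and Col4a4 minus that of this list was −0.16, −0.43 and −0.46 in knockout lungs, against 0.33, 0.24 and 0.48 in wild-type lungs. Centring makes the genotype means of this value equal and opposite, here −0.35 and 0.35. It compares differences between genotypes, not signal levels, for chains chosen on that difference, and was not tested.

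Of the 12 endothelial markers 9 were lower in knockout lungs, 8 with no overlap, and the median log2 difference was −0.36. The shares over all genes, for this and the next lists, were 45.4% lower, 10.5% with all knockout signals below and 12.6% with all above. Car4, a carbonic anhydrase of lung capillaries, had the lowest, −2.08. Their summed signal was 24845 to 28131 in knockout lungs, against 31310 to 34662 in wild-type lungs. Col4a1 and Col4a2 minus the endothelial mean was −0.16, 0.02 and 0.09 in knockout lungs, against 0.10, 0.05 and −0.11 in wild-type lungs. These values overlapped between the genotypes. The endothelial mean includes Car4, whose −2.08 is far below the list's median of −0.36, and it was not taken without Car4. This comparison is of differences between genotypes, for chains chosen on that difference, and was not tested. The pericyte and smooth muscle list went the other way, with 8 of 10 higher and a median of 0.25, and a summed signal of 17140.1 to 19935 in knockout lungs, against 16049 to 16938 in wild-type lungs. Of 9 type II cell markers 7 were lower and 3 of these did not overlap, with a median of −0.25 and sums of 121449 to 142769 in knockout lungs, against 127688 to 164215 in wild-type lungs. Of 8 fibroblast markers 5 were higher, 3 of them with no overlap, and 3 were lower, 2 of them with no overlap. The median was 0.23. The highest were the small proteoglycans Lum (2.42) and Dcn (1.39) and the type I collagen chain Col1a1 (0.54), and the lowest was fibronectin, Fn1 (−0.34). The genotypes overlapped for Dcn. Fn1 and Pdgfra (−0.26) were the lower genes with no overlap. The list summed to 85725 to 99527 in knockout lungs, against 82896 to 92293 in wild-type lungs. Of 5 airway markers 3 were higher and the median was 0.12. None of the markers of these lists passed an adjusted p under 0.05 with limma, where 0.0541% of all genes did. The unadjusted p was under 0.05 for 10 of 12 type I, 8 of 12 endothelial, 6 of 8 fibroblast, 3 of 9 type II, 2 of 10 pericyte and smooth muscle and 1 of 5 airway markers, and for 16.5% of all genes. With robust variance 1 marker passed, Car4.

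**Figure D3:**
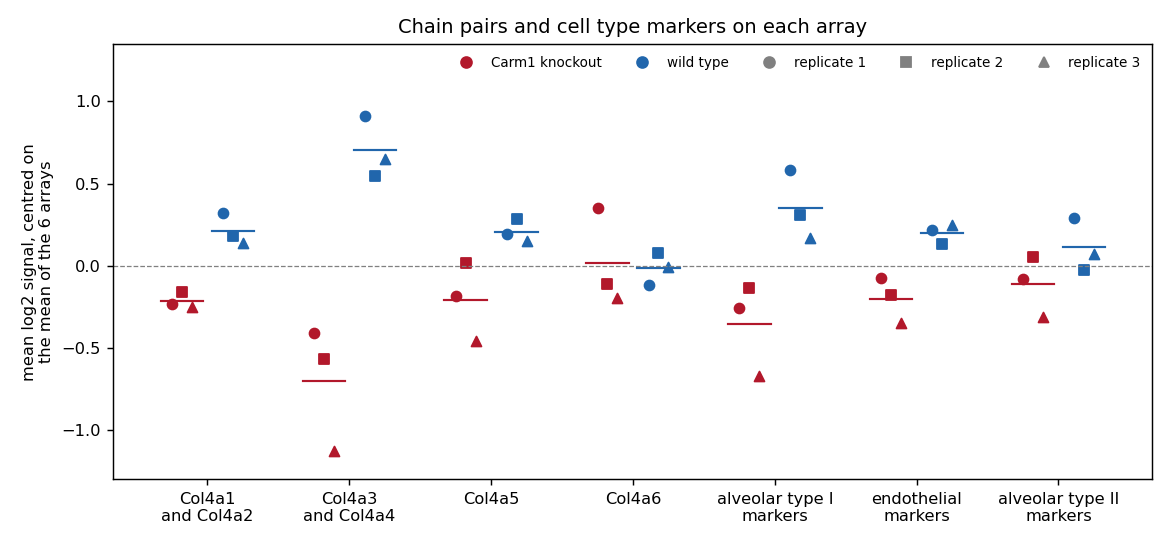
Mean log2 signal of the chain pairs Col4a1 with Col4a2 and Col4a3 with Col4a4, of Col4a5, of Col4a6 and of 3 lists of cell type markers on each array, each probe set centred on its mean over the 6 arrays, with Carm1 knockout in red, wild type in blue and a line at the mean of 3 arrays. Col4a3 and Col4a4 spread most, with knockout replicate 3 at −1.13, and Col4a1 and Col4a2 lie close together within each genotype.

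Tissue taken along with the lung was looked for by markers of its neighbours. The 3 markers of skeletal muscle and oesophagus that passed the filter (Ckm, Acta1 and Krt4, with Myh3 and Krt13 below it) summed to 850.1 to 18089.8 in knockout lungs, against 397 to 2327 in wild-type lungs, and the highest value was knockout replicate 3. Without that array the median log2 difference of Col4a3 and Col4a4 was −1.16 in place of −1.40, and that of Col4a1 and Col4a2 stayed at −0.49. The 3 cardiac markers, with Nppa below the filter, summed to 3264 to 20312 in knockout lungs and to 2478 to 8253 in wild-type lungs. Whether this cardiac signal came from heart tissue or from cells within the lung was not tested. Of 4 thymus markers Cd3e, Rag1 and Ptcra were below the filter, and Cd8a was at 42.9 to 95.1 in knockout lungs and 92.9 to 157 in wild-type lungs. The podocyte gene Nphs1 was below the filter too. Among the 4 arrays without bacterial control RNA, the median log2 difference was −1.31 for Col4a3 and Col4a4 and −0.44 for Col4a1 and Col4a2.

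The genes whose profile over the 6 arrays was most like that of a chain were found by the root mean square difference between centred log2 signals, among 12946 other genes. Col4a3 was closest to Gjb6, a gap junction connexin (0.13 log2 units), with signals of 236, 225 and 114 in knockout lungs, against 674, 493 and 508 in wild-type lungs. Col4a4 was the next closest gene to Col4a3, at 0.17. Col4a4 itself was closest to Sema7a, a membrane-bound semaphorin (0.17), then to Gjb6 (0.17), and Col4a3 ranked 3rd. The partner of Col4a2, Col4a1, ranked 428th among the genes like Col4a2 at its brighter probe set, 1452035_at (0.14), and 43rd at 1426348_at (0.08), a comparison added after seeing the data. The genes closest to Col4a2 were Pon3, a paraoxonase (0.03), and Jun, a transcription factor subunit (0.03). The closest genes were Zdhhc15 and Fcsk for Col4a1, Wwc2 and Arhgef26 for Col4a5, and Klhl18 and Cd302 for Col4a6, at 0.02 to 0.06. Chains with small changes have many genes of like profile, and all profiles share the same 6 arrays. The profiles also hold the knockout minus wild-type differences that chose the chains, so the ranks of the chains among each other are a description only.

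Genes that work with type IV collagen were taken from 6 lists with 88 genes, of which 71 were tested, 12 were below the filter and 5 had no probe set named here. None of the 71 passed the adjusted p of limma, where 0.0541% of all 12947 genes did. An unadjusted p under 0.05 was found for 17 of the 71 and for 16.5% of all genes. With robust variance 1 of the 71 passed, Timp3, and 0.224% of all genes. Every knockout signal was under every wild-type signal for 13 of the 71, as for 10.5% of all genes, and above them for 3, as for 12.6% of all genes. The log2 difference was negative for 43 of the 71 and for 45.4% of all genes. The median log2 difference was −0.08, beside 0.03 over all genes.

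Of 16 enzymes and chaperones that modify and fold collagen 6 were lower in knockout lungs, with a median of 0.04. Over all genes 45.4% had a negative log2 difference. Serpinh1, the collagen chaperone HSP47, averaged 9671 in knockout lungs and 10684 in wild-type lungs, and Ppib, a prolyl isomerase, averaged 19993 in knockout lungs and 19965 in wild-type lungs. The 2 of smallest p were the lysyl hydroxylases Plod1, with 794 in knockout lungs against 1097 in wild-type lungs (log2 −0.46, limma adjusted p = 0.226), and Plod3 (−0.31, limma adjusted p = 0.48). Genes of export and crosslinking had 5 of 11 lower and a median of 0.03. Pxdn, the peroxidase that links the ends of type IV collagen helices, was at 3508 in knockout lungs and 4020 in wild-type lungs (log2 −0.19, limma adjusted p = 0.456), and the smallest p belonged to the lysyl oxidase Loxl3 (0.66, limma adjusted p = 0.267) and the transglutaminase Tgm2 (−0.27, limma adjusted p = 0.306).

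Of 16 other basement membrane genes 11 had lower means in knockout lungs (median −0.07). The laminin chains Lama3 and Lama5 had log2 differences of −0.41 and −0.34 (limma adjusted p = 0.182 and 0.208). Nid1 and Nid2, the nidogens that join laminin to type IV collagen, differed by 0.21 and 0.01 and overlapped between genotypes, as did the perlecan gene Hspg2 (−0.05). Of 9 receptors of type IV collagen 7 had lower means (median −0.28), and 4 of the 9 did not overlap. All 4 had every knockout signal under every wild-type signal, as did 10.5% of all genes. The adhesion receptor Adgrg6 had 1980.3 in knockout lungs against 2525 in wild-type lungs (log2 −0.35, limma adjusted p = 0.202), and the integrin subunit Itga1 had 544 in knockout lungs against 778 in wild-type lungs (−0.52, limma adjusted p = 0.285), though its second probe set gave 0.10.

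Of 8 proteases and inhibitors 6 had lower means (median −0.11). Timp3, an inhibitor of metalloproteinases that is held in the matrix, had a mean of 3356 ± 397 in knockout lungs and 6129 ± 869 in wild-type lungs (SD, n = 3 each; limma adjusted p = 0.0909), with differences of −1.09 to −0.64 at its 4 probe sets. The next of the list was the membrane inhibitor Reck (−0.27, limma adjusted p = 0.261). Among factors known to act on type IV collagen genes, 8 of 11 had lower means (median −0.09). Ccn2, a matricellular protein induced by TGF-beta, had 2318 in knockout lungs and 3902 in wild-type lungs (log2 −0.75, limma adjusted p = 0.106). The forkhead factor Foxc1 had 165 ± 80.8 in knockout lungs and 76.2 ± 4.3 in wild-type lungs (SD, n = 3 each; log2 0.96, limma adjusted p = 0.353). Its genotypes overlapped, and its wild-type signal was near the filter at 59.7. Lmx1b, the factor required for Col4a3 and Col4a4 in podocytes, was below the filter.

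**Figure D4:**
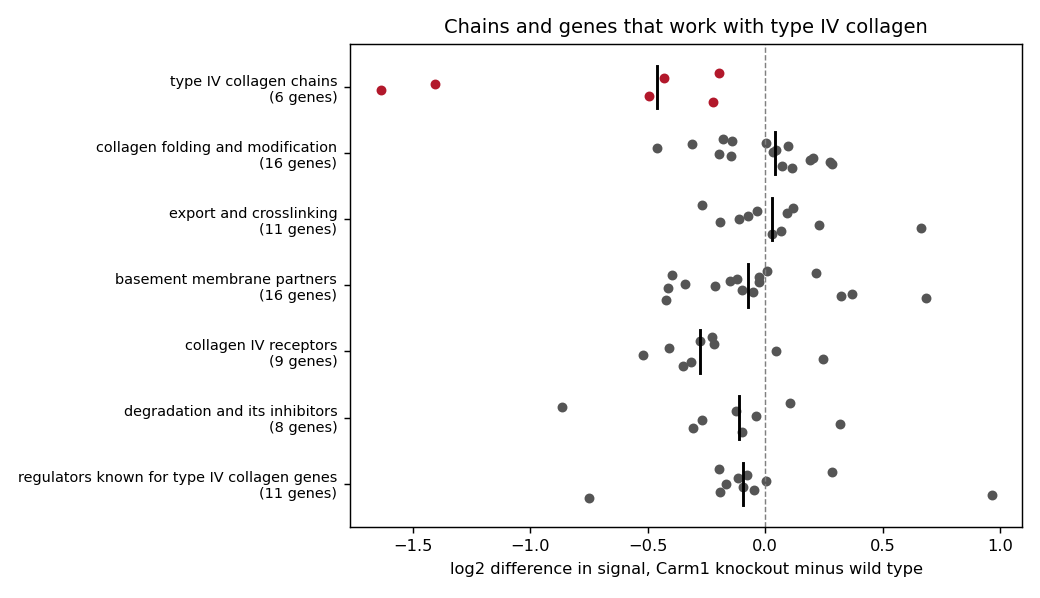
Log2 difference in signal, Carm1 knockout minus wild type, for the 6 chains in red and the 71 tested partner genes in grey, 1 probe set per gene, with a black bar at each list's median and dots spread vertically only to be seen. Col4a3 and Col4a4 stand at −1.64 and −1.40, below every partner gene, of which Timp3 at −0.87 is the lowest. The chains were chosen on this difference, so their distance from the partner genes is a description only.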

How the data were processed

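Lung RNA from 3 Carm1 knockout and 3 wild-type samples was measured on Affymetrix mouse arrays. The deposited values are MAS5 intensity values on a linear scale, per the submitters' processing notes, and the version, background settings and detection calls are not given in the sources used here. All 6 arrays had the same mean, 500.003, once the lowest and highest 2% of probe sets were trimmed, so they share 1 scale. Precision is set by the number of arrays.

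Of 45101 probe sets, 34945 had 1 gene symbol in the platform annotation, 932 had several and 9160 were not named here. The 64 control probe sets were left out. For 34741 of them the gene ID was found in a RefSeq table of GRCm38.p6, which gave the current symbol. Probe sets with a mean log2 signal above the 40th percentile (59.7) were tested, 27022 in all. Log2 was taken with no pseudocount and no further normalization. The fit used limma 3.58.1 (lmFit, eBayes with intensity trend, two-sided) in R 4.3.3, knockout minus wild type, with Benjamini-Hochberg adjustment over all tested probe sets and a threshold of 0.05. It was tested on simulated data. A gene is represented by its probe set of highest mean, and all probe sets of the chains are shown. Partner and marker genes came from textbook lists. Named genes are the chains, Carm1, the 2 most similar genes per chain, from each partner list the 2 of smallest p, and markers. Serpinh1, Ppib, Pxdn, Nid1, Nid2, Hspg2 and Lmx1b were added for their known role, with values seen. The chains and lists were chosen with earlier results of these data known. The alternatives were other eBayes settings, filters, scalings, an added 32 on the linear scale, terms for sex, spike-in RNA and replicate number, and the omission of each array. Promoter windows came from RefSeq.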

Additional observations from a re-analysis of the deposited data

How the results depend on the processing

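The median log2 difference of Col4a3 and Col4a4 was −1.40 and ran from −1.53 to −1.16 over 15 alternatives, both ends from leaving out 1 array (knockout replicates 1 and 3). For Col4a1 and Col4a2 it was −0.49, with a range of −0.52 to −0.46 when 1 array was left out, and −0.37 between the male arrays, an alternative chosen after seeing the data. That alternative, with 1 array per genotype, also gave −0.40 for the median of all 12 probe sets (−0.53 over all arrays, −0.59 to −0.48 with 1 array left out) and turned Col4a6 1421007_at to −0.083. With the mean of both probe sets Col4a6 stood at 0.031, against −0.20 at its brighter probe set. For Col4a3, Col4a4 and Col4a5 together the range with 1 array left out was −1.47 to −1.08. Of 185 further values of single probe sets and genes, 175 moved by less than 1 SD between replicates, 8 moved by more with the same sign and 2 changed sign.

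The count of 8 probe sets past the adjusted p was less stable. It was 0 without an intensity trend, 40 with robust variance, 4 with sex as a term, 2 with spike-in RNA as a term and 0 to 13 with 1 array left out. It was 0 with the replicate number as a block. Same-numbered arrays correlated at −0.14, −0.38 and −0.01 in their deviations from the mean of their genotype. Arrays of different number were not compared in this way, so whether the numbers pair the samples was not settled. With robust variance 1 partner gene passed, Timp3 (limma adjusted p = 0.0483), and with all other alternatives none did.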
